A study of Mus musculus with 6 samples.

Results

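Feedback inhibitors of the RAS-RAF-MEK-ERK cascade were compared between scrambled control and IFNγR1KO B16 melanoma cells. They were taken as 10 genes read here as transcriptional output of ERK, which was not tested for each gene. These are the MAPK phosphatase genes Dusp1, Dusp4, Dusp5, Dusp6 and Dusp10, the Sprouty genes Spry1, Spry2 and Spry4, and the Sprouty-related genes Spred1 and Spred2. They were found by Ensembl identifier in GENCODE release M21 and are 10 of the 55335 genes in the count tables. B16-BL6 is a mouse melanoma line of C57BL/6 origin. The IFNγR1KO cells had been transduced with lentiCRISPR v2, which carries Cas9 and a single guide RNA against the first exon of Ifngr1, and the control cells with scrambled guide RNA (their genotype is given as WT). No stimulus or inhibitor was named for either group. The study worked with single knockout clones rather than mixtures, and which clone was sequenced is not given in the sources used here. Loss of Ifngr1 and traits of a clone therefore cannot be told apart in these libraries. RNA came from 3 cultures per group seeded in parallel, so the p-values measure the spread between those cultures, which may be technical. The deposited design text names activation of the PI3K-AKT-mTOR pathway in knockout cells as what was looked for, and the study describes a survey of the transcriptome without a preset pathway.

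In background terms, ERK is the last kinase of a cascade that passes growth signals from receptors through RAS, RAF and MEK to the nucleus. Active ERK raises transcription of its own inhibitors. Sprouty proteins act between receptor and RAF, Spred proteins hold neurofibromin at the membrane and so lower RAS-GTP, and the MAPK phosphatases remove phosphate from ERK, JNK or p38. In melanoma, where mutated BRAF or NRAS often keeps ERK active, transcripts of Dusp4, Dusp6, Spry2 and Spry4 are widely used as a readout of ERK output. They measure RNA, and phosphorylated ERK was not analysed here.

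Of the 10 genes, 9 passed the filter on low counts. Spry1, Spry2, Spry4 and Spred2 fell in IFNγR1KO cells (4 of 9, or 44.4%, at an edgeR adjusted p under 0.05), and none of the 9 rose. Among all 13642 genes tested, 7.62% were called lower and 7.73% higher. Spry4 alone also passed a log2 fold change of -1, which 1.96% of all genes did in that direction. For 5 of the 9, those 4 and Dusp6, no IFNγR1KO library reached the range of the control libraries, and 32.6% of all genes tested were without overlap in either direction. Estimates lay below 0 for 7 of the 9. Their median was -0.41 on the log2 scale, beside -0.0015 over all genes tested. These genes are few and were picked with earlier results of these data known, so the counts describe them and are not a test of the group. Fewer cells of a type and less RNA per cell cannot be told apart in such bulk libraries.

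The libraries held 9402640, 10579788 and 10196344 counts on genes in control cells and 6698956 to 7409479 in IFNγR1KO cells, so every knockout library was shallower than every control library. When counts were thinned so that all 6 libraries had the lowest total, an alternative added after seeing the data, the genes called were again Spry1, Spry2, Spry4 and Spred2. Levels are given as CPM, the counts per 1000000 counts on tested genes, with library sizes scaled by TMM factors. On this scale 1 count was worth 0.0966 to 0.142. Scrambled control 3 and IFNγR1KO 12 stood apart from the other libraries of their groups, and across genes their deviations from the group means moved together (r = 0.674 over 13642 genes, which share library, depth and base composition effects). For the other 8 pairs of a control with a knockout library r ran from -0.543 to 0.44, and no label pairs the libraries. Deviations from a group mean sum to 0 within the group, so those values are not independent of the 0.674. Without both, which leaves 2 libraries per group, Dusp6 was called lower beside Spry1, Spry2, Spry4 and Spred2, whose log2 fold changes were then -0.86, -0.48, -1.18 and -1.01.

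Ifngr1 itself, the targeted gene, gave 154, 144 and 172 counts in control and 80, 85 and 82 in IFNγR1KO libraries. Its level was 15.9 ± 1.35 against 11.5 ± 0.0901 CPM (mean ± SD, n = 3 each). The groups did not overlap, but the log2 fold change of -0.47 (SE 0.16) missed the threshold with an edgeR adjusted p of 0.0729. The two-sided exact permutation test gave p = 0.1, the smallest that 3 libraries against 3 allow. Cas9 cutting can leave a transcript that is still counted, so the transcript checks the labels only in part. The cells carried their melanocyte markers. All 8 (Mitf, Sox10, Tyr, Tyrp1, Dct, Pmel, Mlana and Gpr143) were tested and none was called, and their summed level was 31800 to 34700 CPM in control and 27900 to 32900 CPM in IFNγR1KO libraries. Summed fibroblast markers were 73.3 to 90.9 CPM in control and 149 to 160 CPM in IFNγR1KO libraries, a gap carried mostly by Col1a2. Of the 4 tested, Col1a1 and Col1a2 were called higher (log2 fold changes of 1.96 and 1.07), and Pdgfra and Pdgfrb were not called (-0.77 and 0.46, edgeR adjusted p of 0.0866 and 0.103), while 3 of the 7 markers stayed at 3 counts or fewer in every library and Lum was at 0 throughout. Their part in the results below was not tested. Immune markers summed to 8.03 to 10.2 and 7.39 to 9.75 CPM, with 4 of 7 at 0 in every library, and endothelial and epithelial markers stayed under 1 CPM in sum.

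**Figure D1:**
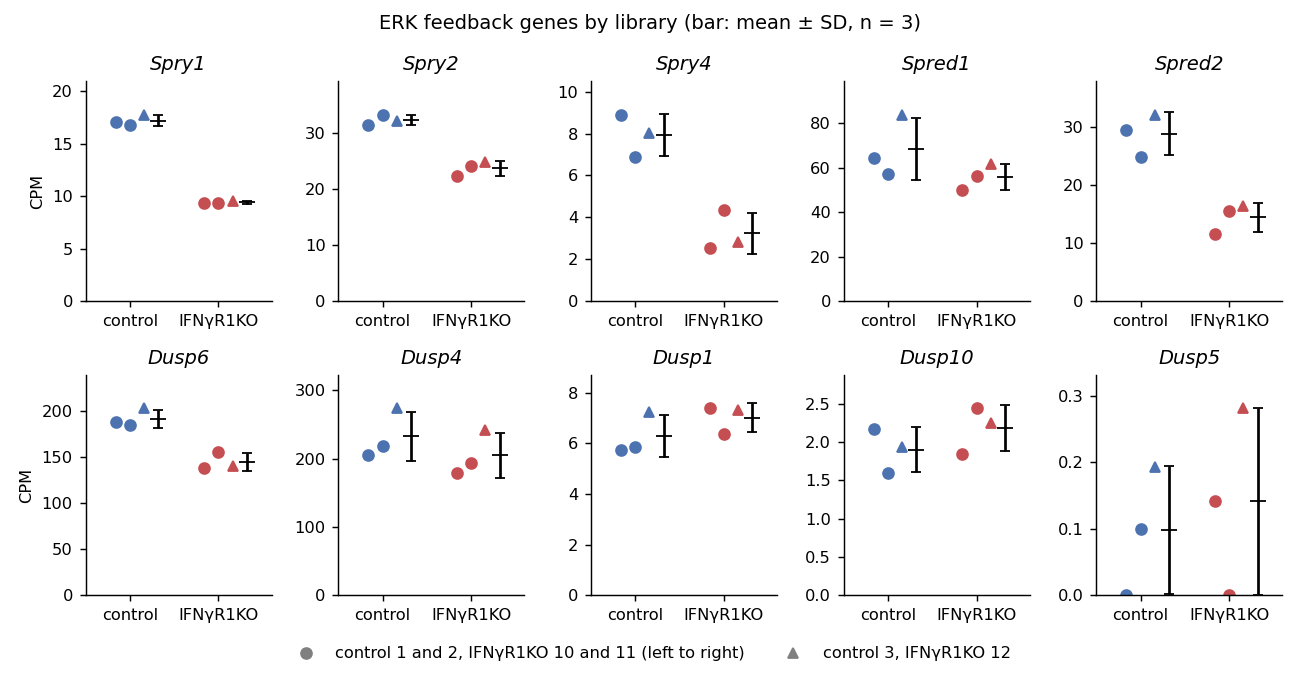
Levels of the 10 ERK feedback genes in CPM (vertical axes from 0, a scale for each gene), with 1 point per library, a bar for the mean ± SD of 3 libraries and triangles for scrambled control 3 and IFNγR1KO 12. Control and IFNγR1KO points do not overlap for Spry1, Spry2, Spry4, Spred2 and Dusp6, and Dusp5 lies at 3 counts or fewer.

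All 3 Sprouty genes measured fell. Spry1, an inhibitor recruited to growth factor receptors, was at 17.0, 16.8 and 17.8 CPM in the control libraries and at 9.38, 9.35 and 9.56 CPM in the IFNγR1KO libraries. The 3 knockout libraries were nearly equal to each other and far below the controls. The level of 17.2 ± 0.505 CPM fell to 9.43 ± 0.115 CPM, 0.548 times the control level, with a log2 fold change of -0.87 (SE 0.16, 95% interval -1.22 to -0.52, edgeR adjusted p = 0.00369). Spry1 (ENSMUSG00000037211, chromosome 3, 37639947 to 37644598, plus strand, GRCm38) was called lower in all 15 alternative fits. Of its exonic bases, 24.4% overlap Gm42922 on the opposite strand, and since the strand setting of the counting is not given in the sources used here, reads in that overlap cannot be assigned. Gm42922 had 12 to 50 counts a library, and was itself estimated at -0.83 without passing the threshold (edgeR adjusted p = 0.133).

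Spry4, which blocks RAS activation downstream of receptors, had the largest estimate among the 9. It was at 8.90, 6.87 and 8.02 CPM in control and at 2.56, 4.34 and 2.81 CPM in IFNγR1KO libraries. The highest knockout library, number 11, still lay below the lowest control library. The level of 7.93 ± 1.02 CPM fell to 3.23 ± 0.961 CPM, 0.411 times the control level (log2 fold change -1.28, SE 0.25, 95% interval -1.84 to -0.73, edgeR adjusted p = 0.00528). It rests on 69 to 83 counts per control library and 18 to 32 per knockout library. Its call held in all 15 alternative fits, with estimates from -1.54 to -1.14. Spry4 (ENSMUSG00000024427) lies on the minus strand of chromosome 18, from 38586247 to 38601415.

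Spry2, the Sprouty gene with the highest level per length, also fell, with a smaller estimate. It was at 31.5, 33.3 and 32.3 CPM in control libraries and at 22.3, 24.1 and 24.9 CPM in IFNγR1KO libraries. The groups were apart, with 32.4 ± 0.928 CPM against 23.8 ± 1.32 CPM, 0.735 times the control level. The log2 fold change was -0.45 (SE 0.14, 95% interval -0.74 to -0.15, edgeR adjusted p = 0.0465). This call sat at the threshold: it was made in 5 of 15 alternative fits and was lost on leaving out any of the 3 control libraries or IFNγR1KO 10 or 11 (edgeR adjusted p of 0.0814, 0.116, 0.0846, 0.188 and 0.162), while the estimate stayed between -0.48 and -0.39. Spry2 (ENSMUSG00000022114) spans 105891947 to 105896819 on the minus strand of chromosome 14. Spry3 was not analysed here.

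Of the Spred genes, Spred2 fell and Spred1 did not pass the test. Spred2, which brings neurofibromin to RAS, was at 29.5, 24.9 and 32.1 CPM in control libraries and at 11.5, 15.4 and 16.3 CPM in IFNγR1KO libraries. Every knockout library was below every control library. Its level of 28.8 ± 3.66 CPM fell to 14.4 ± 2.56 CPM, 0.501 times the control level, with a log2 fold change of -0.998 (SE 0.18, 95% interval -1.38 to -0.61, edgeR adjusted p = 0.0028, the smallest among the 9). The call held in all 15 alternative fits. Spred2 (ENSMUSG00000045671) covers 19924375 to 20024026 on the plus strand of chromosome 11. Spred1, the more abundant Spred gene, was at 64.3, 57.2 and 84.0 CPM in control and 50.0, 56.5 and 61.7 CPM in IFNγR1KO libraries, so the groups overlapped. Its log2 fold change of -0.29 (SE 0.16, 95% interval -0.64 to 0.06) did not pass the threshold (edgeR adjusted p = 0.269) in this or any of the 15 alternative fits. Whether Spred2 changed more than Spred1 was not tested.

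Among the phosphatases that act on ERK, Dusp6 came nearest to a call. Dusp6, the cytoplasmic ERK phosphatase, was at 188, 184 and 202 CPM in control libraries and 138, 156 and 140 CPM in IFNγR1KO libraries. The groups did not overlap, at 191 ± 9.76 against 144 ± 9.78 CPM. The log2 fold change of -0.41 (SE 0.13, 95% interval -0.69 to -0.12) just missed the threshold (edgeR adjusted p = 0.0532). DESeq2 called it lower (adjusted p = 0.02), as did edgeR without scrambled control 3 and IFNγR1KO 12 (log2 fold change -0.34, adjusted p = 0.0334), and the other 13 of 15 alternative fits did not. Dusp6 (ENSMUSG00000019960) spans 99263231 to 99267489 on the plus strand of chromosome 10.

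Dusp4, a nuclear phosphatase and the most abundant of the 10 genes per length, was at 206, 219 and 274 CPM in control and at 179, 193 and 242 CPM in IFNγR1KO libraries. Scrambled control 3 and IFNγR1KO 12 were the highest of their groups, and the ranges overlapped. The log2 fold change was -0.18 (SE 0.16, 95% interval -0.54 to 0.17, edgeR adjusted p = 0.51), and no alternative fit called it. Without both of those libraries the groups gave -0.19 (edgeR adjusted p = 0.237). Dusp4 (ENSMUSG00000031530) lies on chromosome 8, plus strand, 34807297 to 34819894. Dusp5, the nuclear phosphatase specific for ERK, had 0, 1 and 2 counts in control and 1, 0 and 2 counts in IFNγR1KO libraries. It did not pass the filter, and a difference was not detectable at this depth.

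Dusp1 and Dusp10, which act chiefly on JNK and p38, had low levels and estimates above 0. Dusp1 was at 5.75, 5.87 and 7.25 CPM in control and 7.39, 6.37 and 7.31 CPM in IFNγR1KO libraries, which overlap. Its log2 fold change of 0.16 (SE 0.21, 95% interval -0.29 to 0.60, edgeR adjusted p = 0.678) turned to -0.02 in the thinned counts. Dusp10 gave 16 to 20 counts a control library and 13 to 18 a knockout library, or 1.90 ± 0.291 and 2.18 ± 0.302 CPM. At this depth its interval was wide, from -0.47 to 0.87 around a log2 fold change of 0.20 (edgeR adjusted p = 0.724).

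**Figure D2:**
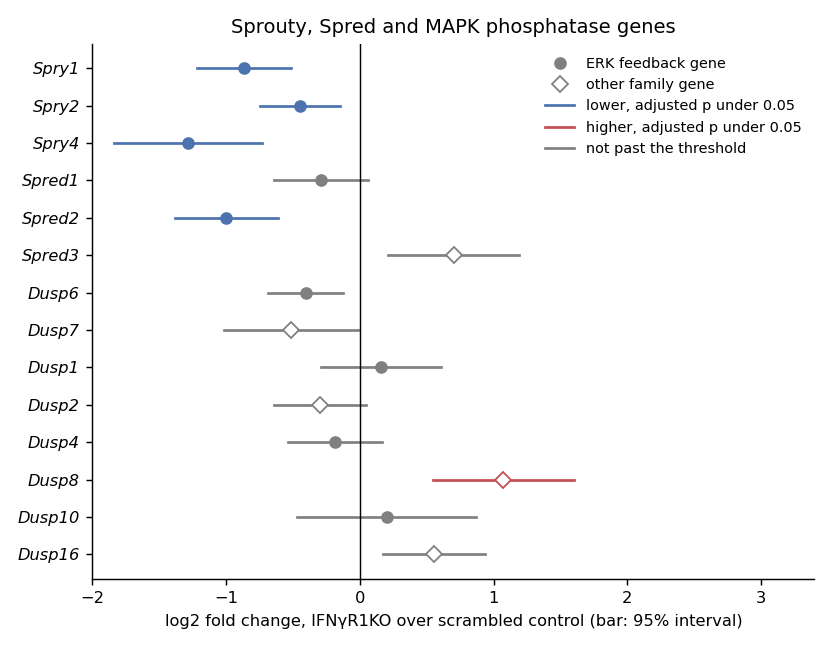
Log2 fold change of IFNγR1KO over scrambled control (horizontal axis) with a 95% interval derived from the edgeR F statistic. Shown are the 9 tested ERK feedback genes (circles) and their 5 tested relatives (open diamonds). Blue genes (Spry1, Spry2, Spry4, Spred2) were called lower and the red gene (Dusp8) higher at an adjusted p under 0.05.

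Because longer transcripts yield more reads, levels were set per kilobase of exon to compare them with each other. In control cells the order was Dusp4 (84.9 CPM per kilobase), Dusp6 (61.1), Spry2 (15.5), Spred1 (10.1), Spred2 (6.24), Spry1 (5.92), Dusp1 (1.90), Spry4 (1.67), Dusp10 (0.624) and Dusp5 (0.0395). Neighbours were apart in every library, except Spred2 and Spry1, and Dusp1 and Spry4, whose ranges overlapped. In IFNγR1KO cells Spry1 (3.24) and Spred2 (3.12) again overlapped, Spry4 at 0.680 CPM per kilobase was below Dusp1 at 2.12 in every library, and Spry4 and Dusp10 (0.716) overlapped. Dusp4 and Dusp6 made up 84.2% to 86.5% of the summed level per length of the 10 MAPK phosphatase genes in every library. Summed per length, the 3 Sprouty genes were at 23.1 ± 0.242 CPM per kilobase in control and 15.3 ± 0.748 in IFNγR1KO cells (ratio 0.663), the 2 Spred genes at 16.3 ± 2.78 and 11.4 ± 1.40 (ratio 0.697), and the 5 Dusp genes at 149 ± 16.4 and 124 ± 12.0 (ratio 0.833). Those sums were not tested.

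**Figure D3:**
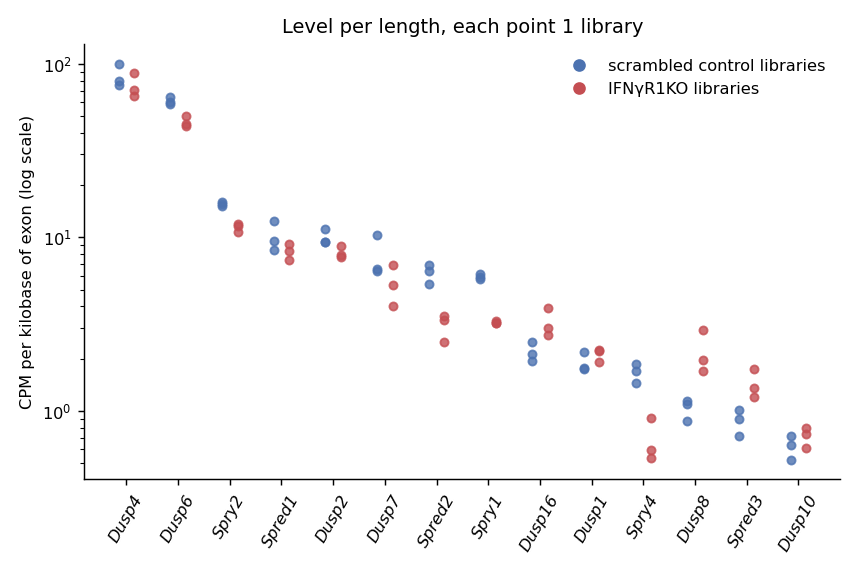
CPM per kilobase of exon on a log axis for 14 tested Sprouty, Spred and MAPK phosphatase genes, ordered by the control mean, with 1 point per library. Dusp4 and Dusp6 lie above the rest in both groups, and Spry4 moves from beside Dusp1 in control cells to beside Dusp10 in IFNγR1KO cells.

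Among relatives outside the 10 genes, the call that was made went the other way. Of 6 remaining MAPK phosphatase and Spred genes, 5 were tested, 1 was called higher (20% against 7.73% of all genes, a share that rests on 1 gene) and none lower, with a median log2 fold change of 0.56. Dusp8, a phosphatase for JNK and p38 best known from brain and heart, was at 4.23, 5.57 and 5.32 CPM in control and 9.52, 8.26 and 14.2 CPM in IFNγR1KO libraries. It rose by a log2 fold change of 1.07 (SE 0.24, edgeR adjusted p = 0.0108) and was called higher in all 15 alternative fits. Dusp16, another phosphatase for JNK and p38, and Spred3 gave log2 fold changes of 0.56 (17.0 to 25.0 CPM, edgeR adjusted p = 0.0521) and 0.70 (5.46 to 8.88 CPM, edgeR adjusted p = 0.0532), with no overlap between groups. They were past the threshold in 6 and 7 of 15 alternative fits, among them that without scrambled control 3 for Dusp16 (adjusted p = 0.0305) and that without IFNγR1KO 12 for Spred3 (adjusted p = 0.0226), both by edgeR. Dusp7, a cytoplasmic ERK phosphatase like Dusp6, was at 25.9 ± 7.43 and 18.2 ± 4.94 CPM (log2 fold change -0.51, edgeR adjusted p = 0.163), and was called lower only without IFNγR1KO 12 (adjusted p = 0.018) and with no filter on low counts (adjusted p = 0.0309). Dusp2, an inducible nuclear phosphatase best known from immune cells, was at 20.0 ± 2.12 and 16.3 ± 1.28 CPM (log2 fold change -0.30, edgeR adjusted p = 0.245). Dusp9 did not pass the filter. Of 14 genes listed as small dual-specificity phosphatases, 9 were tested. Of these, 2 were called higher and none lower, with a median of 0.28. The 2 were Dusp11 and Styx (log2 fold changes of 0.47 and 0.62, both at an edgeR adjusted p of 0.038). These are 22.2% of the 9, against 7.73% of all genes tested. Both calls were lost in 4 of the 6 fits that leave out 1 library: scrambled control 1 or 2 or IFNγR1KO 10 or 11 for Dusp11 (edgeR adjusted p of 0.0691 to 0.142), and scrambled control 2 or 3 or IFNγR1KO 10 or 11 for Styx (0.0602 to 0.191). Styx shares 24.0% of its exonic bases with Gnpnat1 on the opposite strand.

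Promoter sequences are shown for 3 genes. They set Spry1 and Spred2, which fell in every fit, beside Dusp1, which did not pass the threshold and is known to be induced through cAMP response elements. Spry4 also fell in every fit, but its promoter was not searched. They come from RefSeq (GRCm38.p6), stop before any base that is exonic in GENCODE M21, and are in lower case with motif matches in capitals. The Dusp1 stretch lies within the GENCODE span of its gene, 26505590 to 26562128, so it precedes the RefSeq start and not every start. The Spry1 stretch is chr3:37639697-37639946 (plus strand), the Spred2 stretch chr11:19924192-19924374 (plus strand) and the Dusp1 stretch chr17:26508520-26508722 (minus strand). A motif match of Spred2 lies outside its printed stretch.

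Spry1: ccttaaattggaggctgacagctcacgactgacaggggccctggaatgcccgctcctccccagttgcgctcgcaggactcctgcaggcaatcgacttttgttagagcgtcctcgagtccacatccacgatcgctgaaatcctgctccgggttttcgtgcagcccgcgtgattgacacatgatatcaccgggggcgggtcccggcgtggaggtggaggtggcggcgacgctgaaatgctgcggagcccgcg

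Spred2: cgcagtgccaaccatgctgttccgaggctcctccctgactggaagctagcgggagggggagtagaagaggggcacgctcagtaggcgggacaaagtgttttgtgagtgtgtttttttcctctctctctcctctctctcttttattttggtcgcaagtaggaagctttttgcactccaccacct

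Dusp1: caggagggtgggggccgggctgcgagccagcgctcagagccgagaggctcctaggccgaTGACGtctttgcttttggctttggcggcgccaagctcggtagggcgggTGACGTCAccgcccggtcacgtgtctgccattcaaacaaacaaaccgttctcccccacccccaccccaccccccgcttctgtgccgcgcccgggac

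RefSeq promoters, the 250 bases before the start of the RefSeq transcript, were searched for 8 of the 10 genes, all but Dusp4 and Spry4. For Dusp1 and Dusp10 the GENCODE gene begins upstream of the searched bases. GC content ran from 56.0% (Spred2) to 70.8% (Spred1). On both strands, an ETS site (ACCGGAAG), an AP-1 site (TGANTCA), the cAMP response element (TGACGTCA) and the first 5 bases of it (TGACG, which every full element holds), a C/EBP-ATF site (TGATGNAA) and the CArG box, bound by serum response factor, were searched. Among 32851 RefSeq mouse promoters of that length, 1.72% held the ETS site, 6.75% the AP-1 site, 1.55% the full cAMP response element, 17.8% its first 5 bases, 3.45% the C/EBP-ATF site and 1.47% the CArG box. Dusp1 held the full element 143 bases before its start, with a further match to the 5 bases at 191, and Dusp5 held 2 CArG boxes at 82 and 72 bases and the 5 bases at 55. Spred2 held the 5 bases at 51, in a stretch that is exonic in another transcript and is not printed. The windows of Spry1, Spry2, Spred1, Dusp6 and Dusp10 held none of these letters. A match describes the letters and not binding.

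Other genes known to follow ERK activity over hours gave 4 calls lower and 1 higher. Of 14 such delayed ERK output genes 13 were tested. Of these, 4 fell (30.8%, against 7.62% of all genes) and 1 rose (7.69%, near the 7.73% of all genes). Estimates lay below 0 for 9, with a median log2 fold change of -0.38. Etv5 and Etv1, ETS factors of the PEA3 family, were at 30.7 ± 7.21 and 14.1 ± 2.19 CPM in control and fell to 10.5 ± 4.66 and 5.99 ± 1.25 CPM in IFNγR1KO cells. The log2 fold changes were -1.55 (SE 0.29) and -1.24 (SE 0.21), with edgeR adjusted p of 0.00353 and 0.00224. Etv5 was at 24.9, 28.5 and 38.8 CPM in control libraries and at 5.11, 13.0 and 13.4 CPM in IFNγR1KO libraries, so IFNγR1KO 10 lay lowest by far. Without that library its log2 fold change was -1.22 (edgeR adjusted p = 0.00448). Ccnd1, the cyclin of early G1, fell from 328 ± 54.6 to 167 ± 32.2 CPM (log2 fold change -0.97, SE 0.17, edgeR adjusted p = 0.00288). It shares 23.4% of its exonic bases with LTO1 on the opposite strand. Hmga2, a chromatin protein of growing cells, fell from 86.6 ± 1.96 to 50.1 ± 8.78 CPM (log2 fold change -0.79, SE 0.15, edgeR adjusted p = 0.00399). These 4 calls held in all 15 alternative fits.

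Epha4, an ephrin receptor, rose from 8.14 ± 1.79 to 18.1 ± 2.01 CPM (log2 fold change 1.15, SE 0.20, edgeR adjusted p = 0.00234) and did so in all 15 alternative fits. For 10 of the 13 genes the groups did not overlap, against 32.6% of all genes tested. Of those 10, 5 did not pass the threshold. Etv4, Myc and Lif had log2 fold changes of -0.62, -0.38 and -0.78 (edgeR adjusted p of 0.0985, 0.0723 and 0.189), and Epha2 and Plaur of 0.83 and 0.45 (edgeR adjusted p of 0.149 and 0.081).

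**Figure D4:**
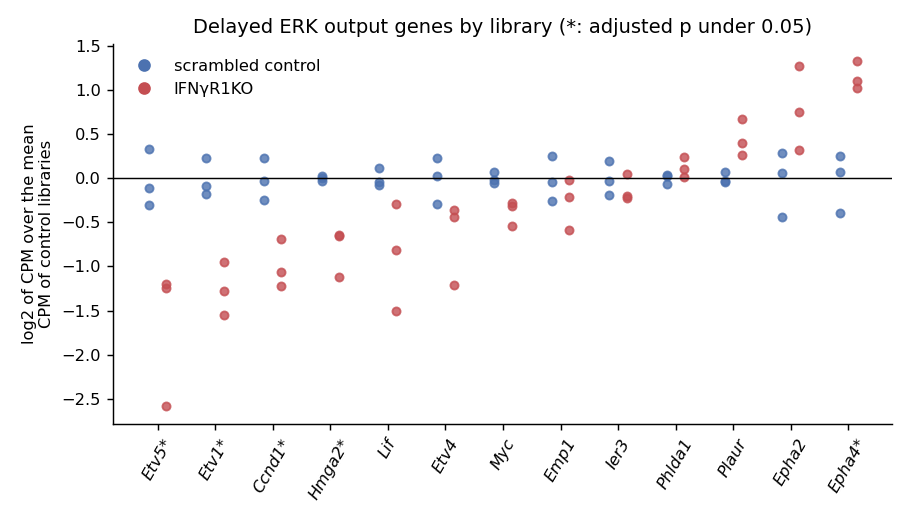
Log2 of the CPM of each library over the mean CPM of the control libraries (vertical axis) for 13 tested delayed ERK output genes, ordered by fold change, with 1 point per library. Etv5, Etv1, Ccnd1 and Hmga2 were called lower and Epha4 higher (marked by asterisks), and the groups do not overlap for 10 of the 13 genes, beside 32.6% of all genes tested.

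The immediate early genes, which growth factors and stress switch on within minutes, had calls in both directions. Of 16, 12 were tested, 3 rose (25%, against 7.73% of all genes) and 1 fell (8.33%, near the 7.62% of all genes), with a median log2 fold change of 0.02. Atf3, a stress-induced repressor of the ATF family, rose from 5.63 ± 1.31 to 27.8 ± 3.98 CPM (log2 fold change 2.30, SE 0.21, edgeR adjusted p = 2.3e-05). Btg2, an antiproliferative p53 target, and Klf6, a zinc-finger factor, rose by log2 fold changes of 1.15 and 0.76 (edgeR adjusted p of 0.00808 and 0.00409). These 3 were called higher in all 15 alternative fits. Nr4a1, an orphan nuclear receptor, fell by 0.58 on the log2 scale (66.3 ± 8.98 to 44.3 ± 5.58 CPM, edgeR adjusted p = 0.0226). Its call was lost without scrambled control 2 or 3 or IFNγR1KO 10 or 11 (edgeR adjusted p of 0.0875, 0.0522, 0.116 and 0.0879). Fos, Egr1 and Junb, read most often as early ERK targets, had log2 fold changes of -0.18, -0.03 and -0.03 (edgeR adjusted p of 0.761, 0.97 and 0.92), with Fos and Egr1 at levels of only 1.27 to 4.35 CPM.

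Genes of the cascade itself gave 1 call. Of 25 genes from receptor adaptors to ERK and its RSK kinases, 24 were tested, none was called lower and 1 was called higher (4.17%), beside 7.62% and 7.73% of all genes, with a median log2 fold change of -0.05. That gene was Gab1, a docking protein for PI3K and SHP2, at 9.46 ± 1.87 and 15.2 ± 1.73 CPM (log2 fold change 0.68, SE 0.19, edgeR adjusted p = 0.0336), a call lost on leaving out any library but scrambled control 3 (edgeR adjusted p of 0.0579 to 0.113). Mapk3, which encodes ERK1, had a log2 fold change of -0.22 (edgeR adjusted p = 0.401), and Map2k1 and Map2k2, which encode MEK1 and MEK2, -0.30 and -0.21 (edgeR adjusted p of 0.156 and 0.435). Of 11 other RAS and RAF inhibitors 10 were tested and 1 was called (10% lower, against 7.62% of all genes), Rasa2, a RAS GTPase-activating protein, which fell from 22.1 ± 2.37 to 15.1 ± 0.972 CPM (log2 fold change -0.55, edgeR adjusted p = 0.0345). That call, too, held in only 1 of the 6 fits without 1 library, the one without scrambled control 3. Nf1, which encodes the neurofibromin that Spred proteins recruit, had a log2 fold change of -0.20 (edgeR adjusted p = 0.608).

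The JNK and p38 branch holds the other MAPKs that MAPK phosphatases act on, and the kinases upstream of them. Of its 12 genes 11 were tested, 3 fell (27.3%, against 7.62% of all genes) and none rose (against 7.73%). The median log2 fold change was -0.14. All 3 belong to the p38 arm, of which other genes were not called. Mapk11, Mapk12 and Mapk13, which encode the other p38 kinases, had log2 fold changes of -0.14, 0.21 and -0.67 (edgeR adjusted p of 0.645, 0.453 and 0.0611). Map2k3 and Map2k6 encode the kinases MKK3 and MKK6, and Mapk14 encodes p38α, which they activate. Map2k3 fell from 162 ± 8.31 to 97.0 ± 1.53 CPM (log2 fold change -0.74, SE 0.13, edgeR adjusted p = 0.00214). Map2k6 fell from 9.57 ± 0.862 to 4.91 ± 1.01 CPM (log2 fold change -0.96, SE 0.22, edgeR adjusted p = 0.0109), and Mapk14 from 163 ± 23.0 to 106 ± 8.60 CPM (log2 fold change -0.63, SE 0.14, edgeR adjusted p = 0.0121). The call of Map2k3 held in all 15 alternative fits, that of Map2k6 was lost without scrambled control 2 (edgeR adjusted p = 0.0539), and that of Mapk14 without IFNγR1KO 10 or 11 (edgeR adjusted p of 0.0681 and 0.0739). Over all 7 lists of other genes, 84 were tested, of which 8 rose (9.52%) and 9 fell (10.7%), near the 7.73% and 7.62% of all genes tested.

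**Figure D5:**
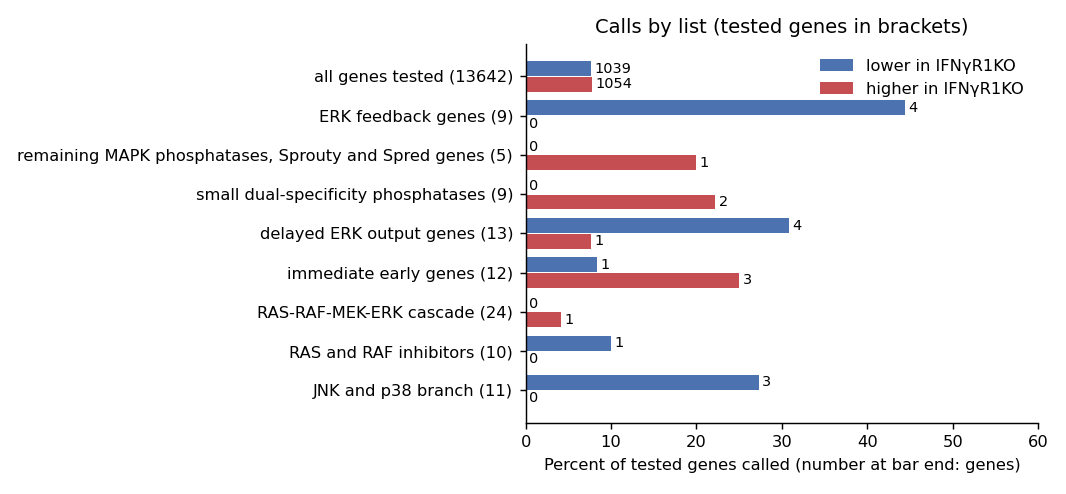
Percent of the tested genes of each list called lower (blue) or higher (red) at an edgeR adjusted p under 0.05, with the number of genes at the end of each bar and the number tested in brackets. The ERK feedback genes have 4 of 9 lower and 0 higher, beside 7.62% and 7.73% over all genes tested.

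The genes whose pattern was most like that of Spred2, the ERK feedback gene with the smallest adjusted p, were Atad5, Gm11946 and Bcan. Likeness was the root mean square difference of log2(CPM + 0.5), centred on each gene's mean, over the 6 libraries, among 11060 genes with a mean of at least 5 CPM. It was 0.0503 for Atad5, 0.0626 for Gm11946 and 0.0790 for Bcan. Atad5 and Gm11946 lie on chromosome 11, as Spred2 does, at 80089400 to 80135794 and 3530157 to 3536856, and Bcan lies on chromosome 3. The share of the compared genes on chromosome 11 was not counted. Log2 fold changes of Atad5, Gm11946 and Bcan were -0.96, -1.01 and -1.11. That these lie near the value of Spred2 follows from picking the genes by likeness over the same libraries.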

How the data were processed

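Polyadenylated RNA of 3 scrambled control and 3 IFNγR1KO cultures of B16 melanoma cells was sequenced in paired ends. Per the submitters' processing notes, reads were mapped with STAR 2.7.5a to GRCm38 and counted per gene with HTSeq 0.11.2, and DESeq2 1.34.0 was used for the study's own comparison. The authors deposited the raw counts of each library, neither normalized nor filtered. The strand setting of the counting and the annotation release are not given in the sources used here. Reads assigned to no gene made up 46.9% to 47.7% of each library, and these rows were left out, as were ambiguous and multiply aligned reads.

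Symbols, positions and exonic lengths came from GENCODE M21, which holds 55154 of the 55335 identifiers. In R 4.3.3, edgeR 4.0.16 was used for the test: filterByExpr (minimum count 10, minimum total 15), TMM, the quasi-likelihood fit with no covariates over 13642 genes, and Benjamini-Hochberg adjustment. A gene was called at an adjusted p under 0.05. A gene at 3 counts or fewer was taken as at the floor. The edgeR test gives no SE, so SE was the absolute log2 fold change over the square root of its F statistic. Intervals are at 95%, from that SE and a t quantile. DESeq2 1.42.0 and limma-voom (limma 3.58.1), 3 other normalizations, 2 other filters and leaving out each library were the alternatives, with stricter thresholds. Thinned counts and the fit without scrambled control 3 and IFNγR1KO 12 were added after seeing the data. The test was checked on simulated counts, in which changed genes moved by a log2 fold change of 1 or more and libraries were independent. Smaller changes, as most members had, and deviations shared between libraries were not simulated. No pair of libraries agreed within sampling noise (chi-square per degree of freedom 2.62 to 22.7).

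The members, the gene lists and the motifs were chosen with earlier results of these data known. Named were all members and relatives, Ifngr1, up to 4 called genes per list with the smallest adjusted p, and the 3 genes most like Spred2. Etv4, Myc, Lif, Epha2, Plaur, Fos, Egr1, Junb, Mapk3, Map2k1, Map2k2, Nf1, Mapk11, Mapk12, Mapk13, Col1a1, Col1a2, Pdgfra, Pdgfrb and Lum were named after their values were seen. The study's kinase, protein and in vivo data were not analysed here.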

Additional observations from a re-analysis of the deposited data

How the results depend on the processing

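Spry1, Spry4 and Spred2 were called lower in all 15 alternative fits, and Spry2 in 5 of them. The count of ERK feedback genes called lower was 3 to 5 across these fits and 3 at an adjusted p under 0.01. With a log2 fold change beyond 1 required, 1 ERK feedback gene was lower, 4 and 2 other pathway genes were higher and lower, and 443 and 267 of all genes. At an adjusted p under 0.01 the other pathway genes gave 4 higher and 5 lower, and all genes 454 and 417. With no filter on low counts, 14 other pathway genes were lower, beside 1435 of the 23337 genes tested in that fit. Without both scrambled control 3 and IFNγR1KO 12, 1617 of all genes were called lower. Leaving out each library in turn gave 5 to 11 other pathway genes higher, and over all genes 535 to 1372 higher and 457 to 1452 lower. The lowest counts came without scrambled control 2, IFNγR1KO 10 or IFNγR1KO 11. For Dusp1 the estimate changed sign to -0.0235 in thinned counts (edgeR adjusted p = 0.959). The causes were not tested. Ifngr1 was not called in any of the 15 fits (adjusted p of 0.072 to 0.212). No paired analysis was possible because the groups share no replicate number (1 to 3 against 10 to 12) and no label pairs their libraries. Depth limited Dusp5 and Dusp10 most, and 3 libraries per group limit all estimates.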
